A study of Sus scrofa with 6 samples.

Results

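Progesterone synthesis in the ovarian follicle was described through 9 genes, SCARB1, STAR, CYP11A1, FDX1, FDXR, HSD3B1, POR, CYB5A and NR5A2. They were found by joining the deposited signal table to the annotation of the array and keeping every probe set, a group of short probes designed against one transcript, whose single gene symbol was one of the 9. This gave 18 probe sets of the 23935 that are not controls on the Affymetrix porcine array. The filter, which asked for 3 or more arrays with a signal over 50, was passed by 17 of the 18, as by 19196 of all probe sets, and those 17 were tested. All 9 symbols were represented, NR5A2 by 5 probe sets, FDXR by 3, STAR, HSD3B1 and FDX1 by 2 each, and the other genes by 1 each.

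In the textbook pathway the scavenger receptor SCARB1 takes up cholesterol from lipoproteins, STAR carries it into the mitochondrion, and the cytochrome CYP11A1 cleaves its side chain with electrons that FDXR and FDX1 pass on, giving pregnenolone. HSD3B1 then turns pregnenolone into progesterone, while POR and CYB5A serve as electron partners of the microsomal cytochromes that use these steroids further. NR5A2 is a nuclear receptor that mouse granulosa and luteal cells need for ovulation and steroid output. After the ovulatory surge of LH, granulosa and theca cells turn into luteal cells, whose main product is progesterone.

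The series asked which transcripts differ in the follicles of a prolific Chinese breed and a European breed. It holds 6 arrays, each hybridized with RNA of 1 sow made from 5 µg total RNA, 3 from Large White sows and 3 from Chinese Taihu sows, which the sample labels call Chinese Erhualian. All sows were of at least 2 parities, received 1000 IU PMSG and 500 IU hCG 80 h later, and were slaughtered 30 to 38 h after hCG, and healthy preovulatory follicles over 5 mm were taken. The agents, doses and times were thus the same in both groups, the hour of each sow within that window was not given in the sources used here, and the breeds were kept on separate farms, so breed and farm cannot be told apart. Values are signal intensities on a linear scale, scaled and normalized by the authors, and 6 arrays limit the precision.

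The signals of the 9 genes spread widely between sows of the same breed. Large White sow 1 and Chinese Taihu sow 2 had the 2 highest signals and Chinese Taihu sow 1 the lowest in 17 of the 17 tested probe sets. In the untested one Chinese Taihu sow 2 alone was above 50, and signals under 50 have no order. Over all 19196 probe sets, the same 2 sows were highest in 15.6%, Chinese Taihu sow 1 was lowest in 23.1%, and both held in 5.62%. This order was noticed in the values themselves and is given as a description without a test. Signals of different probe sets depend on how well each binds its target, so no order of RNA amounts between the genes was drawn, and the genes were instead ordered by their fold range over the sows within a probe set.

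**Figure D1:**
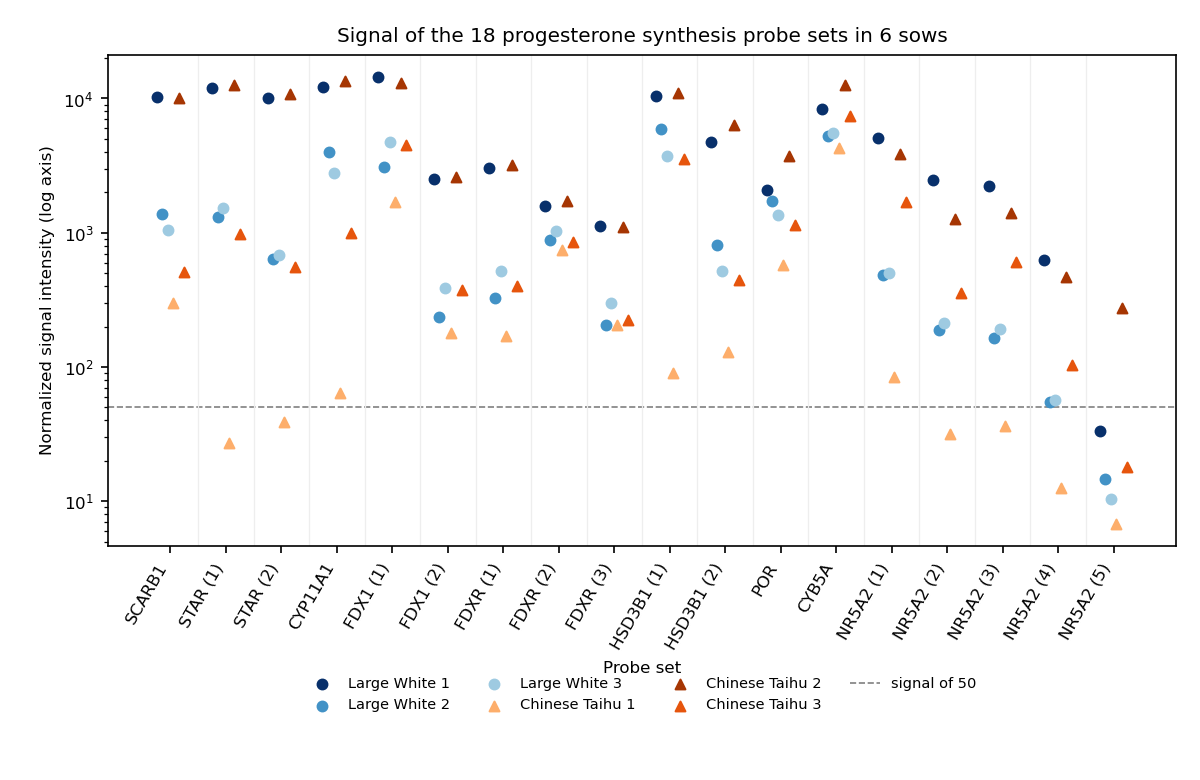
Normalized signal intensity (log axis) of the 18 probe sets in each of the 6 sows, with circles for Large White and triangles for Chinese Taihu sows. Numbers after a gene give its probe sets, with the brightest over the 6 sows first and the rest by falling mean in Large White sows. In the 17 tested probe sets the darkest circle and the darkest triangle (Large White sow 1 and Chinese Taihu sow 2) are the 2 highest points and the palest triangle (Chinese Taihu sow 1) is the lowest, while in NR5A2 (5) only Chinese Taihu sow 2 is above the line at 50.

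SCARB1, through which steroidogenic cells take cholesterol esters from high density lipoprotein, had 1 probe set. Its signals were 10204, 1378 and 1048 for Large White sows 1, 2 and 3, and those for Chinese Taihu sows 1, 2 and 3 were 299, 10077 and 511. The 2 high sows, 1 of each breed, lay within a narrow band, and the lower of them was 7.31-fold above the next sow. The highest signal was 34.2-fold the lowest, and the ranges of the breeds overlapped. The log2 difference between breeds, Chinese Taihu minus Large White, was -1.09 with an SE of 1.50 and a 95% interval from -4.71 to 2.54 (limma adjusted p = 0.993).

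STAR, the carrier that sets the pace of acute steroid synthesis, showed the widest fold range of the 9 genes. Its brighter probe set gave 12051, 1304 and 1516 in the Large White sows and 27.0, 12624 and 982 in the Chinese Taihu sows, in the order of the sow numbers. The dimmer one gave 10085, 637 and 686 against 39.1, 10804 and 557. Chinese Taihu sow 1 was below a signal of 50 in both, so its range is a bound, and the highest sow was at least 252-fold above it in the brighter and at least 216-fold in the dimmer probe set, counted against 50. Both probe sets placed the same 2 sows on top, the lower of them 7.95-fold above the next sow in the brighter and 14.7-fold in the dimmer, and both left the remaining Large White sows and Chinese Taihu sow 3 within a narrow middle band. The mean of the brighter probe set was 4957 ± 6144 (SD, n = 3) in Large White and 4544 ± 7013 (SD, n = 3) in Chinese Taihu sows. The breed difference was -2.05 on the log2 scale (SE 2.20, 95% interval -7.36 to 3.26, limma adjusted p = 0.993), an interval that holds large changes in either direction.

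CYP11A1, the side chain cleavage enzyme, had 1 probe set with signals of 12210, 3982 and 2776 in the Large White and 63.9, 13520 and 1004 in the Chinese Taihu sows. Chinese Taihu sow 1 was far below the others, the next sow being 15.7-fold higher, and the highest sow exceeded it 212-fold. Chinese Taihu sow 3 lay below all Large White sows, but Chinese Taihu sow 2 above them, so the breeds overlapped. With a log2 difference of -2.43 (SE 1.84, 95% interval -6.88 to 2.02) CYP11A1 had the lowest unadjusted limma p of the tested members, 0.233, and an adjusted p of 0.993.

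FDX1, the ferredoxin that hands electrons to CYP11A1, gave 14465, 3110 and 4723 against 1692, 12976 and 4489 in its brighter probe set. The dimmer probe set gave 2505, 236 and 386 against 181, 2612 and 376. Here Chinese Taihu sow 1 was not set apart as it was for CYP11A1. The next sow was 1.84-fold above it in the brighter and 1.31-fold in the dimmer probe set, and the whole range was 8.55-fold and 14.5-fold. Large White sow 2, not Chinese Taihu sow 3, came next to the lowest in both. The breed difference of the brighter probe set was -0.37 on the log2 scale (SE 0.86, 95% interval -2.44 to 1.70, limma adjusted p = 0.993).

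FDXR, the reductase that loads FDX1 with electrons, was read by 3 probe sets that gave the same 2 highest sows but unequal ranges. The brightest gave 3041, 326 and 521 in the Large White and 169, 3186 and 404 in the Chinese Taihu sows. The second, named by the manufacturer as one that takes in alternative transcripts of a gene, gave 1585, 877 and 1025 against 748, 1724 and 856. The dimmest gave 1125, 206 and 300 against 204, 1100 and 225. The fold range was thus 18.8 in the brightest, 2.31 in the second and 5.51 in the dimmest, and in the dimmest Chinese Taihu sow 1 and Large White sow 2 were level (1.01-fold). The breed difference of the brightest was -0.41 on the log2 scale (SE 1.27, 95% interval -3.48 to 2.65, limma adjusted p = 0.998).

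HSD3B1, which completes progesterone, had 2 probe sets that ranked Chinese Taihu sow 2 and Large White sow 1 on top but differed in how far the rest lay below. The brighter, of a kind that can share probes with other transcripts, gave 10505, 5895 and 3704 against 90.6, 10898 and 3536. The dimmer gave 4774, 806 and 520 against 129, 6316 and 446. In the brighter the other 5 sows lay nearer to each other and Chinese Taihu sow 1 stood 39.0-fold below the next, whereas in the dimmer the 2 high sows stood 5.93-fold above the next. The SD over the 6 sows of the log2 difference between these probe sets was 1.44, against 0.63 for the pair of STAR and 0.60 for that of FDX1. The fold range was 120 in the brighter and 48.8 in the dimmer. The breed difference was -2.01 on the log2 scale in the brighter (SE 1.69, 95% interval -6.10 to 2.07) and -0.82 in the dimmer (SE 1.53, 95% interval -4.51 to 2.87), both with a limma adjusted p of 0.993.

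**Figure D2:**
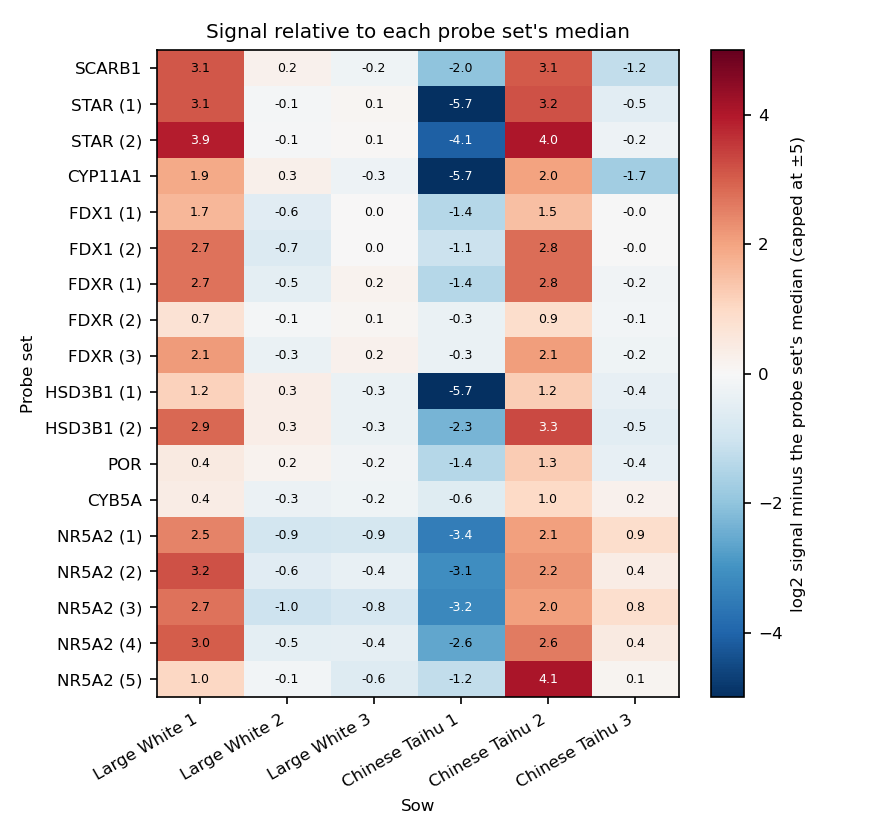
Log2 signal of each of the 18 probe sets minus its own median over the 6 sows, with red above and blue below the median and the colour capped at 5 either way. For the 17 tested probe sets the columns of Large White sow 1 and Chinese Taihu sow 2 are red and that of Chinese Taihu sow 1 is blue, while the other 3 sows mostly lie closer to 0, with CYP11A1 and SCARB1 lower and NR5A2 higher in Chinese Taihu sow 3.

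POR, the reductase that feeds electrons to all microsomal cytochromes P450, had signals of 2093, 1720 and 1366 against 571, 3698 and 1141. Its range was 6.47-fold, and the 2 highest sows were not set apart, since Large White sow 1 was 1.22-fold above Large White sow 2. CYB5A, the cytochrome b5 that aids CYP17A1 in making androgens, gave 8284, 5256 and 5525 against 4244, 12689 and 7408. With 2.99-fold between highest and lowest it had the narrowest range of the 9 genes by their brightest probe sets, and Chinese Taihu sow 3 was close behind Large White sow 1 (1.12-fold). The breed difference was -0.34 for POR (SE 0.66, 95% interval -1.93 to 1.24) and 0.24 for CYB5A (SE 0.41, 95% interval -0.74 to 1.23) on the log2 scale, both with a limma adjusted p of 0.993. CYB5A was the single tested member whose fitted value was higher in Chinese Taihu sows.

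NR5A2, the nuclear receptor among the 9, had 5 probe sets. The brightest gave 5110, 486 and 501 in the Large White and 84.3, 3844 and 1686 in the Chinese Taihu sows. The others are numbered by their mean in Large White sows. The second gave 2490, 187 and 215 against 31.9, 1265 and 355, and the third 2248, 164 and 192 against 36.3, 1403 and 602. These first 3 probe sets put Chinese Taihu sow 3 between the high pair and Large White sows 2 and 3, as did that of CYB5A (7408 against 5256 and 5525). In the brightest probe sets of STAR, CYP11A1, HSD3B1, SCARB1 and POR, Chinese Taihu sow 3 was below both of these Large White sows. In those of FDX1 and FDXR it lay between them. The fourth probe set of NR5A2 gave 625, 54.6 and 56.9 against 12.5, 468 and 103, with the order of its brighter ones. The fifth did not pass the filter and was at 33.2, 14.5 and 10.4 against 6.82, 275 and 17.9, so that Chinese Taihu sow 2 alone was above 50, at least 5.51-fold above the other sows. Among the 4 tested probe sets the SD of the log2 difference of any 2 lay between 0.15 and 0.43, and the brightest had a range of 60.6-fold. The breed difference of the brightest was -0.40 on the log2 scale (SE 1.61, 95% interval -4.27 to 3.48, limma adjusted p = 0.998).

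Ordered by the fold range of the brightest probe set, the genes ran from STAR (at least 252) and CYP11A1 (212) over HSD3B1 (120), NR5A2 (60.6), SCARB1 (34.2), FDXR (18.8), FDX1 (8.55) and POR (6.47) to CYB5A (2.99). Neighbours in this order are not separated where a gene's own probe sets differ as much, as for HSD3B1 (120 and 48.8), FDXR (18.8, 5.51 and 2.31) and FDX1 (8.55 and 14.5). The median range of the 17 tested probe sets was 5.61 on the log2 scale, beside 0.81 over all 19196 tested. The median SD within a breed was 2.34 on that scale, beside 0.30 over all tested. These log2 ranges and SDs took signals under 50 as they are, unlike the fold ranges above. The lowest sow was under 50 in both STAR probe sets and in most tested ones of NR5A2.

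**Figure D3:**
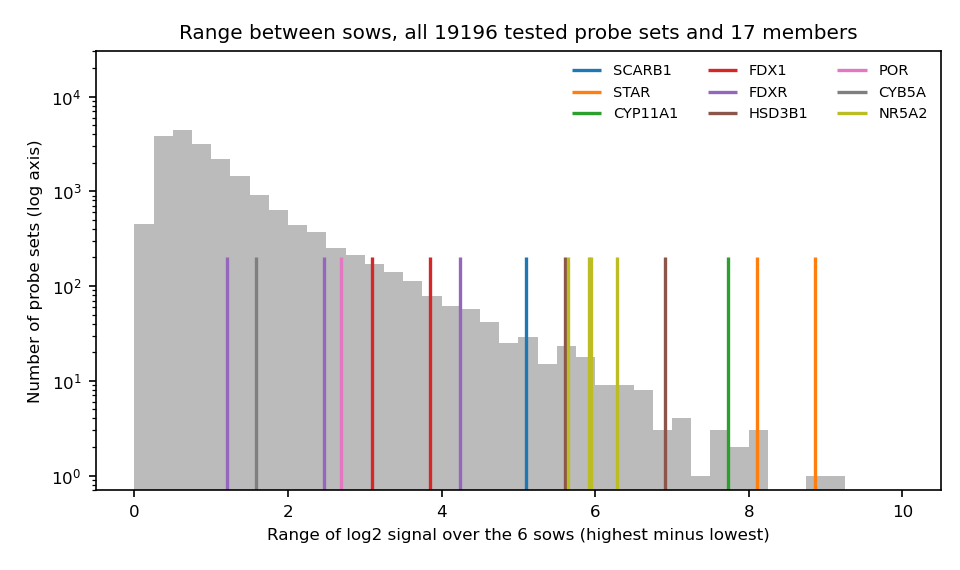
Number of probe sets (log axis) by the range of log2 signal over the 6 sows, for all 19196 tested probe sets (grey bars) with the 17 tested progesterone synthesis probe sets as coloured lines. STAR, at 8.87 and 8.11, and CYP11A1, at 7.73, lie in the far right tail, CYB5A (1.58) and a probe set of FDXR (1.21) near the bulk, whose median is 0.81. Signals under 50 enter these ranges as they are, so both STAR ranges differ from the fold bounds counted against 50.

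No member passed the test between breeds. At an unadjusted limma p of at most 0.05, 0 of the 17 tested probe sets were called, beside 3.86% of all tested (300 higher and 441 lower in Chinese Taihu sows). At an adjusted p below 0.05 the count was 0 of 17, beside 0.0208% of all tested, and the lowest adjusted p of the members was 0.993. The methods' t-test on the same values likewise called 0 of 17 at an unadjusted p of at most 0.05. In 0 of the 18 probe sets did the breeds fail to overlap, beside 9.1% of all tested. The exact 2-sided permutation test of 3 sows against 3, which cannot go below p = 0.1, gave 0.5 or more for each of the 18.

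The fitted value was lower in Chinese Taihu sows in 16 of the 17 probe sets, with a median of -0.41 on the log2 scale beside 0.00 over all tested. This direction depended on single libraries and on their weight. Without Chinese Taihu sow 1 the fitted value was higher in Chinese Taihu sows in 15 of 17, the median was 0.41, and 0 were called at an unadjusted p of at most 0.05, beside 3.65% of all tested. STAR then had a log2 difference of 0.29 (SE 1.38), HSD3B1 of 0.02 (SE 0.61), NR5A2 of 1.24 (SE 1.11) and CYP11A1 of -0.48 (SE 1.18). Without Large White sow 1 the fitted value was higher in 11 of 17, with a median of 0.27, and with array weights in 9 of 17, with a median of 0.04.

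Leaving out Chinese Taihu sow 2 moved the values the other way. All 17 fitted values were then lower in Chinese Taihu sows, with a median of -1.62, and 3 of 17 were called at an unadjusted p of at most 0.05, beside 6.41% of all tested. They were CYP11A1 (log2 difference -4.34, SE 1.28), POR (-1.07, SE 0.37) and SCARB1 (-2.65, SE 1.03), each with a limma adjusted p of 0.707. The interval of each breed difference is thus set by the sow to sow spread, and a p above the threshold does not show that the breeds are alike.

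**Figure D4:**
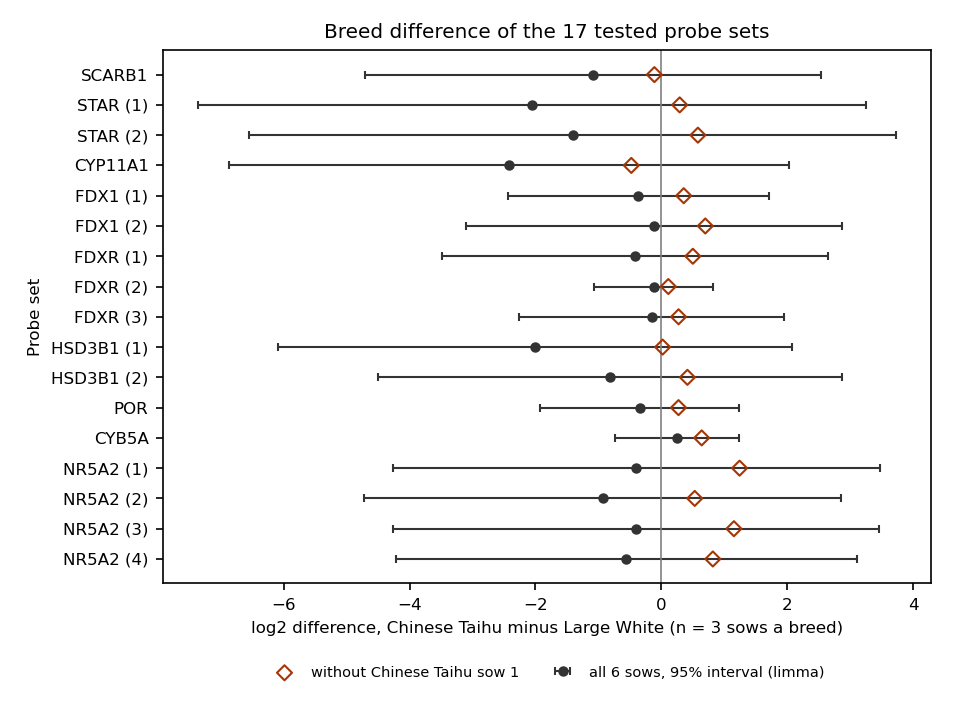
Log2 difference in signal, Chinese Taihu minus Large White sows (n = 3 each), for the 17 tested probe sets, with limma 95% intervals (dots and bars) and the fitted value without Chinese Taihu sow 1 (open diamonds). Every interval holds 0, and 15 of the 17 diamonds lie above 0.

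The genes moved together between sows. Over the 36 pairs of genes, each by its brightest probe set, Spearman's rho over the 6 sows was between 0.71 and 1 with a median of 0.86, and 14 pairs had an adjusted exact permutation p below 0.05. By Pearson's r of the log2 signals it was 30 pairs, and 33 before adjustment. Pairs of all other tested genes were not counted, so these counts have no share over the array beside them. They do not show that co-variation is particular to these genes. No r is given for most pairs because the sows fall into clusters, a high pair and a low sow apart from the remaining 3, and 6 points with such gaps are few. Without Large White sow 1, Chinese Taihu sow 1 or Chinese Taihu sow 2 in turn, 0 of the 36 pairs passed, while 24 passed without Large White sow 2, 7 without Large White sow 3 and 31 without Chinese Taihu sow 3. The smallest p that 5 sows allow is 0.00833 in each of these. Within a breed 3 sows are too few for a correlation. POR and CYB5A, the electron partners whose sows are not set apart as clearly, had r = 0.85 (exact permutation p = 0.0319, adjusted p = 0.0397) and rho = 0.77 (exact permutation p = 0.103, adjusted p = 0.116), and r fell to 0.18 without the 2 sows farthest from the median of POR, so the relation rests on those sows. That was the lowest value of the 36 pairs, which without 2 such sows each had an r above 0 and a median of 0.80 over 4 sows. The sows left out were Chinese Taihu sow 2 with either Chinese Taihu sow 1 or Large White sow 1. Either Large White sow 1 or Chinese Taihu sow 1 thus stayed in every pair, and no r was computed without all the sows set apart. These values therefore cannot show that the relation holds without them.

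The median log2 signal of the 17 probe sets relative to their own medians was 2.72 for Large White sow 1 and 2.08 for Chinese Taihu sow 2. It was -0.28 and -0.20 for Large White sows 2 and 3, -0.18 for Chinese Taihu sow 3 and -2.32 in Chinese Taihu sow 1. Markers of other cell types moved with this order in the low sow. Epithelial markers of the ovarian surface and the oviduct, 9 of 12 on the array, were highest in that sow in 9 of 9, and their summed signal was 45464 there against 1773, 2068 and 8553 in the Large White and 1843 and 2048 in the other Chinese Taihu sows. EPCAM, which marks epithelial cells, was at 7761 in that sow and between 140 and 1653 in the other 5. Their part in the low progesterone synthesis signals was not tested.

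Granulosa markers, 12 of 12 on the array, summed to 4374 in Chinese Taihu sow 1 and to between 24756 and 29940 in the other sows. The inhibin alpha subunit INHA, made by granulosa cells, was at 446 in that sow and at 6510, 9989 and 10684 in the Large White and 9602 and 8246 in the other Chinese Taihu sows. Of the 11 granulosa markers past the filter 6 were lowest in that sow and 2 were highest, INHBA, an activin subunit, at 899 against 233 to 387, and CYP19A1 at 119. Theca markers, 5 of 6 on the array, summed to 1030 in that sow, 6712 in Chinese Taihu sow 2 and between 3340 and 4411 in the rest, and INSL3, a peptide hormone of theca cells, was at 48.5, 3047 and 858 in Chinese Taihu sows 1, 2 and 3 and at 1121, 1275 and 1725 in the Large White sows. Of the 5 theca markers 4 were lowest in Chinese Taihu sow 1 and ANPEP was highest there, at 671 against 218 to 382. Over all tested probe sets that sow was the lowest in 23.1%. TCF21 was at 1004 in Chinese Taihu sow 2 and at 2361, 1989 and 2062 in the Large White sows. A summed signal does not show that the cells of a list were present. In Chinese Taihu sow 1 ANPEP made most of the theca sum, and INSL3 (48.5) and LHCGR (18.5) were below 50. CYP17A1 (86.1) and TCF21 (206) were above it. LHCGR counts in both the theca and the luteal list. In such bulk samples fewer cells of a type and less RNA per cell cannot be told apart.

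The high pair, Large White sow 1 and Chinese Taihu sow 2, was not set apart by granulosa markers. Of the 11 past the filter 2 had it as the 2 highest sows, beside 15.6% of all tested probe sets. Luteal markers, 6 of 7 on the array, summed to 10001 for Large White sow 1 and 12376 for Chinese Taihu sow 2, and to between 4315 and 7307 in the others. Of the 5 that passed the filter 2 had the same high pair, PGRMC1 and VEGFA, while PTGFR, LHCGR and OXT did not. PGRMC1 was the largest part of the sum in every sow, at 5625 and 6318 in the high pair and 3535 to 4884 in the others. Large White sow 1 was at 1439 for PTGFR, below Large White sow 3 (1518). For LHCGR it was at 79.9, below Large White sows 2 and 3 (181 and 129). The relaxin gene of this list, entered there as RLN, is annotated on the array as RLN2 and is not in the sum, and its signals were 5638, 436 and 511 in the Large White and 16.4, 9291 and 153 in the Chinese Taihu sows, the same high pair and low sow. Leukocyte markers, 8 of 10 on the array, summed to 11315 in Large White sow 2 and to 2134 to 3934 elsewhere, with 6 of 8 highest in that sow and the T cell markers CD3E and CD2 highest in Chinese Taihu sow 1 (130 and 169). The defining granulosa receptor FSHR was at 11.9 to 60.8 and the aromatase CYP19A1 at 88.4 to 119 in all 6 sows. Another aromatase copy, CYP19A3, is not in the list and ran from 49.7 to 8473 in its brighter probe set. Endothelial (4918 to 5932), smooth muscle and pericyte (12628 to 19352), fibroblast (9484 to 14655) and oocyte (616 to 1001) sums and the red blood cell gene HBB (345 to 717) did not follow the order of the members. Single markers within these sums did set Chinese Taihu sow 1 apart. Of 5 smooth muscle markers 2 were highest there, CNN1 (3979 against 472 to 1826) and DES (853 against 119 to 402), and 2 were lowest. Of 4 fibroblast markers 1 was highest there, LUM (2359 against 214 to 623), and 1 was lowest. The arrays had 18801 to 19019 probe sets above 50 and a median signal of 253 to 276. Chinese Taihu sow 1 correlated with the other arrays at r = 0.834 to 0.887 across probe sets, while the highest r of each other array was 0.955 to 0.967. The ratio of 3' to 5' control signals was 0.98 to 1.06 for GAPDH. For actin it ran from 2.91 in Chinese Taihu sow 1 to 4.61 in Large White sow 2.

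**Figure D5:**
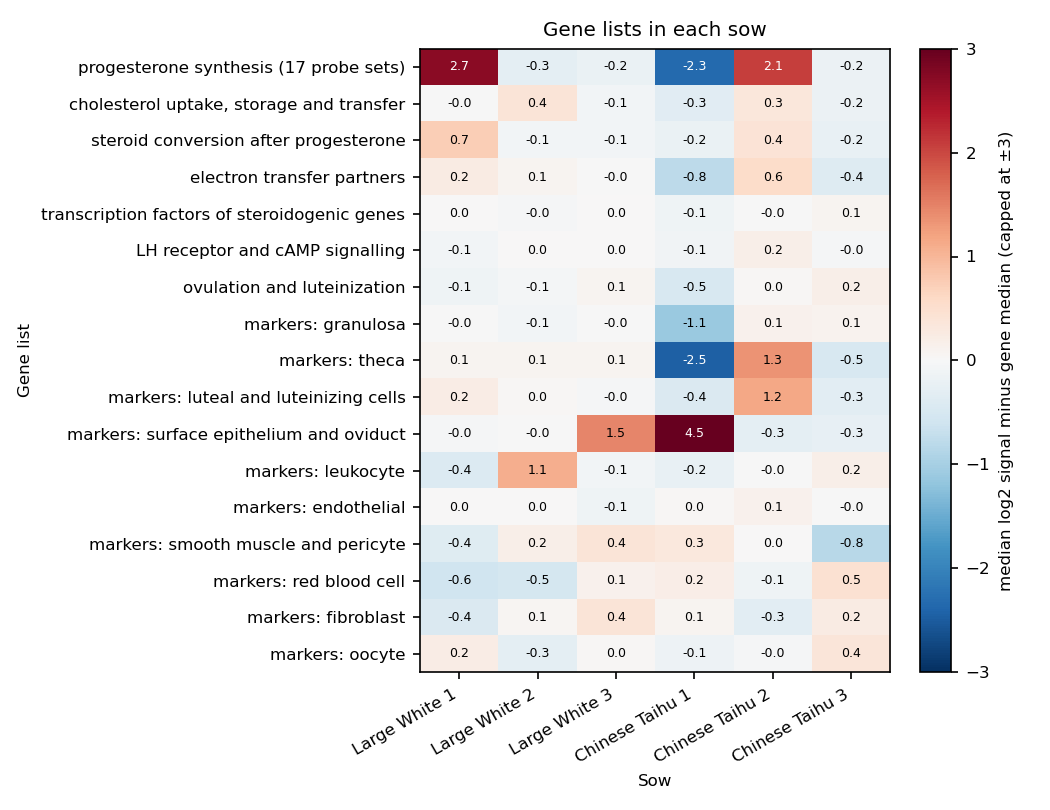
Median log2 signal of gene lists in each sow relative to each gene's own median, for the progesterone synthesis probe sets, 6 lists of other genes of the pathway and 10 lists of cell type markers, with the colour capped at 3. The members stand at 2.72 and 2.08 in Large White sow 1 and Chinese Taihu sow 2 and at -2.32 in Chinese Taihu sow 1, where the surface epithelium and oviduct markers stand at 4.45 and the theca markers at -2.45.

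Other genes of the pathway were taken from 6 lists with 167 genes, of which 102 were on the array with a symbol of their own and 95 passed the filter. At an unadjusted limma p of at most 0.05, 0 were higher and 2 of 95 were lower in Chinese Taihu sows, beside 3.86% of all tested probe sets in either direction, and 0 passed after adjustment. They were ABCA1, which exports cholesterol from cells, and IDH2, which makes NADPH in the mitochondrion. ABCA1 was at 265, 1371 and 631 against 65.9, 197 and 151, a log2 difference of -2.29 (SE 0.68, limma adjusted p = 0.993). IDH2 was at 3049, 3617 and 2915 against 2473, 1912 and 1771, a log2 difference of -0.65 (SE 0.19, limma adjusted p = 0.993). The breeds did not overlap in either gene. The count became 1 of 93 without Large White sow 2 (1.85% of all tested), 4 of 94 without Chinese Taihu sow 1 (3.65%), 10 of 94 without Chinese Taihu sow 2 (6.41%) and 6 of 93 without Chinese Taihu sow 3 (4.32%).

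Among these 95 genes, 26 had Large White sow 1 and Chinese Taihu sow 2 as the highest sows, beside 15.6% of all tested probe sets. Chinese Taihu sow 1 was the lowest in 41, beside 23.1%, and both held in 14, beside 5.62%. Of 18 genes of cholesterol uptake, storage and transfer 5 had the high pair. NPC1, which releases cholesterol from lysosomes, had it with 3074, 2069 and 1012 against 304, 4193 and 1067. Of 15 genes of steroid conversion after progesterone 8 had it, among them HSD17B1, the enzyme that makes estradiol from estrone, with 3480, 176 and 934 against 113, 977 and 802. SULT1E1, which sulphates estrogens, was highest in Chinese Taihu sow 1 and below 50 in both high sows and in Large White sow 2, with 9.58, 13.9 and 126 against 298, 3.95 and 78.9. CYP17A1, the androgen forming cytochrome that also marks theca cells, was at 459, 270 and 236 against 86.1, 1886 and 104. Of 8 other electron transfer genes 4 had the high pair, among them ME1, a source of NADPH, with 1588, 803 and 539 against 185, 1949 and 663, and CYB5B, the cytochrome b5 of the outer mitochondrial membrane, with 1146, 479 and 586 against 349, 757 and 282.

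The lists of regulators were counted in the same way, and their counts of the high pair lay close to the 15.6% of all tested probe sets. Of 23 transcription factors 4 had the high pair. NR5A1, the close relative of NR5A2 named here after its values were seen, had it over a narrow span, with 740, 567 and 484 against 383, 857 and 548. GATA4, which acts on steroidogenic promoters, was at 631, 409 and 482 against 75.1, 454 and 456, and PPARG at 340, 309 and 339 against 35.8, 218 and 496, so that Chinese Taihu sow 1 was low in both without a high pair. Of 13 genes of LH receptor and cAMP signalling 2 had the pair, and the receptor LHCGR itself was at 79.9, 181 and 129 against 18.5, 557 and 63.0. AREG, an EGF-like ligand induced by LH, was at 254, 179 and 312 against 155, 1312 and 134. Of 19 genes of ovulation and luteinization 3 had the pair, and the matrix protein PTX3, at 2573, 4418 and 6844 against 65.6, 5264 and 5784, and the prostaglandin synthase PTGS2, at 22.7, 150 and 603 against 14.8, 15.0 and 1166, had Large White sow 1 below the other Large White sows. The difference between these lists and the members in this share was not tested.

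The genes most like each member were searched among 6313 genes, the 9 left out, by Pearson's r of log2 signal over the 6 sows, which share their treatment and normalization, and are given as a description. For STAR they were SNAI1 (0.999), CLN6 (0.994) and ETFDH (0.992), and for CYP11A1 DDX56 (0.998), ACAD9 (0.998) and UCHL1 (0.992). The likeness is of shape and not of size, since SNAI1 ranged 1.49-fold and DDX56 3.06-fold over the sows. HSD3B1 was most like SLC25A6 (0.995), FNTA (0.994) and FSCN1 (0.991), and its 5 nearest also held PTGES, a prostaglandin E synthase with a 17.2-fold range (0.990). FDX1 was nearest to PTGFRN (0.995), SNRPN (0.992) and FADS6 (0.988), and FDXR to LHFP (0.993), RHBDD2 (0.989) and PDE4C (0.988). SCARB1 was nearest to MRPL37, a protein of the mitochondrial ribosome (0.9998), SLC25A39 (0.997) and NDUFA9 (0.995). POR was nearest to PDK3 (0.993), RNF170 (0.993) and TMEM237 (0.992), CYB5A to LOC102159087 (0.993), MYOZ1 (0.986) and KLHL18 (0.983), and NR5A2 to ERP29 (0.990), TMEM221 (0.984) and CLCN2 (0.983).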

How the data were processed

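The deposited table gives the signal intensity of every probe set on each array, which the authors computed by MAS 5.0 (MAS5 2.3.1 in the submitters' processing notes), scaled each array to a target signal of 500 and applied the invariant set normalization of dChip. Each probe set has 11 probe pairs. Of 24123 probe sets 188 controls were left out of all tests. After a floor of 1 the signals were log2 transformed, and probe sets above 50 on at least 3 arrays were fitted by breed with limma 3.58.1 in R 4.3.3 (variance trend, 2-sided, Benjamini-Hochberg adjustment over all tested), after a run on simulated data. Figures were drawn with matplotlib 3.10.9, and scipy 1.17.1, numpy 2.4.6 and pandas 2.3.3 served the other steps under Python 3.11.15. In the annotation 10099 probe sets carry 1 symbol, 198 several and 13826 none, and 0 of the 198 hold a member. Symbols of all 9 genes were unchanged in a RefSeq table. The replicate is the sow, grouped by its breed label.

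The 9 genes and all lists were chosen with earlier results of these data known. Every member probe set is described. Of other genes of the pathway, those with an unadjusted p of at most 0.05 and the 2 of widest range in each list are named, each gene by its brightest probe set, and of the 5 genes most like a member 3 are printed. CYP17A1, NR5A1, PTGES and the genes under other observations were named after their values were seen. Intervals are at 95%. Alternatives were quantile normalization, median scaling, no filter, a filter at 100, an offset of 16, a floor of 50, array weights, a constant prior variance, a replicate block, the methods' t-test and leaving out each sow. Replicate numbers were not treated as pairs in the main fit. No sequence or genome position is given, since no genome was used here.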

Additional observations from a re-analysis of the deposited data

How the results depend on the processing

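Over the 9 genes and 16 alternatives, 144 breed differences were computed, of which 13 changed sign and 0 had an adjusted p below 0.05. Array weights turned FDX1 (0.14), FDXR (0.14) and NR5A2 (0.66) positive. Leaving out 1 sow at a time gave log2 differences of -4.14 to 0.29 for STAR, -3.43 to 0.0203 for HSD3B1, -1.11 to 0.36 for FDX1, -1.62 to 0.55 for FDXR, -1.07 to 0.27 for POR, -0.15 to 0.64 for CYB5A, -1.51 to 1.24 for NR5A2, -4.34 to -0.48 for CYP11A1 and -2.65 to -0.06 for SCARB1, which was near 0 without Large White sow 1 (-0.06) or Chinese Taihu sow 1 (-0.11). The count of members at an unadjusted p of at most 0.05 ran from 0 to 3 with a sow left out, and that of the other pathway genes from 1 to 10, against 2. Over all tested probe sets 741 passed, 1303 with array weights and 351 to 1215 with a sow left out, and after adjustment 4 passed, 11 with array weights, 0 with a replicate block, 0 by the methods' t-test and 0 to 4 with a sow left out. The replicate block, which pairs sows by their number, changed no other call. The deviations of same-numbered sows from their breed means correlated at -0.17, -0.14 and 0.27, and those of other sows at -0.48 to 0.51. With 3 sows a breed these values gave no sign of pairing by number and cannot exclude it. With the mean of each number subtracted, r over the 36 pairs of genes had a median of 0.93. The sows of a number then mirror each other around 0, so this value is no check of the co-variation. Without that step 30 of the 36 pairs passed by r, 14 by Spearman's rho and 0 to 31 with a sow left out. No share over pairs of all genes was computed beside these counts. The causes were not tested. Signals under 50 have no order.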

Other observations

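With signals under 50 taken as they are, 74 of all tested probe sets had a log2 range of at least 5.61, the members' median. Of these, 26 had the members' order, with Large White sow 1 and Chinese Taihu sow 2 highest and Chinese Taihu sow 1 lowest. Of the 26, 9 were members. The others were picked by this order and are given as values. RLN2 is the hormone relaxin that the pig corpus luteum secretes. Its signals were 5638, 436 and 511 in the Large White and 16.4, 9291 and 153 in the Chinese Taihu sows. Chinese Taihu sow 1 was below 50 there, so the range of RLN2 is a bound and gives it no rank among the 26. FABP3, a fatty acid binding protein, was at 10874, 605 and 636 against 74.0, 6662 and 408. LRP8, a lipoprotein receptor, was at 2359, 420 and 251 against 90.2, 6611 and 204, and the transcription coactivator CITED1 at 7872, 403 and 690 against 151, 4111 and 1347. The order and the wide range of these genes follow from how they were picked and add no support to the pattern of the members. The gap below the high pair was not alike, and in CITED1 it was 4111 against 1347.

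CYP19A3, one of the aromatase copies of the pig, had the order but with Chinese Taihu sow 2 far above Large White sow 1. Its brighter probe set was at 850, 389 and 364 against 49.7, 8473 and 97.7. A dimmer one was at 207, 95.8 and 85.1 against 22.6, 5225 and 33.7, with Chinese Taihu sows 1 and 3 below 50. The copies are close in sequence, so its signal cannot be assigned to 1 copy with certainty. GPX3, the secreted glutathione peroxidase, was at 11731, 9435 and 7329 against 235, 10789 and 7234, and in it, as in the brighter probe set of HSD3B1, the low sow alone stood apart.

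AKR1CL1, an aldo-keto reductase named here after its values were seen, also had the order within a narrower range, at 10711, 5124 and 5101 against 956, 12132 and 6188. The luteal receptor PTGFR was at 1439, 1096 and 1518 against 125, 4249 and 2186, low in the same sow but without Large White sow 1 among the highest.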
